A study of Rattus norvegicus with 12 samples.

Results

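The metalloproteases that cut extracellular matrix and shed cell surface proteins, and the TIMP proteins that block them, were followed at the RNA level in smooth muscle cells depleted of a single RNA-binding protein. The genes were chosen by symbol alone, as every row of the count table whose name is Mmp, Timp, Adam or Adamts followed by a number, which gave 75 of 33294 genes. They comprise 24 Mmp genes (Mmp24os among them), 4 Timp genes, 28 Adam genes and 19 Adamts genes. The cells were PAC1, a rat line from pulmonary artery smooth muscle that can take a more differentiated or a more proliferative state, split once a week for the more differentiated one, and all data come from this 1 line. Poly(A) RNA was sequenced from 4 groups of 3 libraries, which received a negative control siRNA called C2 or an siRNA to RBPMS, to RBFOX2 or to QKI. All groups were reverse transfected with 90 pmol of siRNA. Per the labels they were transfected again after 24 h and assessed 48 h after that, whereas the study describes longer intervals. Below, the groups are called control, RBPMS-KD, RBFOX2-KD and QKI-KD.

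Matrix metalloproteases (MMPs) are zinc proteases that are made as inactive proenzymes and are either secreted or held on the cell surface, and between them they degrade collagens, elastin, laminins and proteoglycans. ADAMs are membrane-bound relatives that release growth factors, cytokines and Notch ectodomains from cells, and ADAMTS proteases are secreted relatives that process procollagens and cut the large aggregating proteoglycans. TIMPs are secreted inhibitors that bind the active site of these enzymes. In the artery wall these families are known from the remodelling that accompanies smooth muscle migration, growth of the intima and aneurysm. The RNA-binding protein RBPMS is abundant in smooth muscle, whereas RBFOX2 and QKI (symbol Qk) regulate splicing in many tissues. The comparisons ask how the RNA of each protease and inhibitor gene changes when 1 of these regulators is depleted.

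Library totals ranged from 111 to 152 M counts. Even numbers made up 68.1% of low counts (1 to 19) but 50.9% of counts above 1000, so read pairs may have been counted as 2, and the counts printed below are as deposited. Each siRNA lowered its own target, in libraries that did not overlap with control, with a log2 fold change of -2.5 ± 0.065 for Rbpms, -2.05 ± 0.044 for Rbfox2 and -3.13 ± 0.04 for Qk. Rbpms also fell in RBFOX2-KD (-0.81 ± 0.058) and QKI-KD (-0.49 ± 0.058), and Qk fell in RBFOX2-KD (-0.42 ± 0.036) and rose slightly in RBPMS-KD (0.18 ± 0.036). Rbfox2 fell slightly in QKI-KD (-0.15 ± 0.041) and RBPMS-KD (-0.12 ± 0.041). The former did not pass with library totals (-0.063, adjusted p = 0.195), nor the latter with the 6 libraries alone (-0.12, adjusted p = 0.073). Of the 10 smooth muscle markers listed, 10 were expressed well enough to test. In RBPMS-KD 3 rose and 7 fell, in RBFOX2-KD 2 and 6, and in QKI-KD 3 and 6. Of all tested genes, 30.4%, 30.1% and 32.9% rose and 29%, 30.1% and 34% fell. Des, Myh11 and Myocd rose in RBPMS-KD (log2 fold changes of 0.65, 0.34 and 0.16) and QKI-KD (0.98, 0.19 and 0.78). Myh11 and Smtn rose in RBFOX2-KD (1.05 and 0.18). The summed level of the 10 markers, mostly Acta2 and Tagln, was 2168 to 2236 CPM in control, 1106 to 1215 in RBPMS-KD, 867 to 966 in RBFOX2-KD and 1467 to 1557 in QKI-KD. CPM is the count per M counts of the scaled library total. Kdr and Emcn (endothelium), Krt18 and Krt19 (epithelium) and Ptprc, Adgre1 and Itgam (leukocytes) had too few counts to test. The summed macrophage and leukocyte list, mostly Cd14, lay at 37.9 to 39.6 CPM in control, 52.5 to 60.0 in RBPMS-KD, 53.0 to 54.4 in RBFOX2-KD and 43.7 to 44.7 in QKI-KD, the endothelial list at 8.73 to 10.8, 8.84 to 9.12, 5.25 to 5.81 and 6.46 to 6.75 CPM, and the epithelial list, mostly Krt8, at 29.5 to 31.7, 36.3 to 44.2, 72.0 to 73.9 and 32.3 to 34.2 CPM in the same order. Of the 6 fibroblast markers 1, Fap, lay under 1 CPM. Their sum, nearly all Col1a1, was 7340 to 8476 CPM in control, 13946 to 17078 in RBPMS-KD, 14012 to 15420 in RBFOX2-KD and 14477 to 16965 in QKI-KD. Other fibroblast markers moved the other way: Lum fell (-1.26, -0.53 and -1.43 on the log2 scale in RBPMS-KD, RBFOX2-KD and QKI-KD), as did Thy1 (-0.46, -0.64 and -1.21), and over the list 1 rose and 3 fell, 2 rose and 2 fell, and 2 rose and 4 fell. The part of these markers in the results on the proteases was not tested. In RNA from whole cultures, fewer cells of a type and less RNA per cell cannot be told apart.

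Of the 75 genes, 49 had enough counts to test: 15 Mmp, 3 Timp, 15 Adam and 16 Adamts genes. The other 26 had at most 20 counts in any library. They include the collagenases Mmp1, Mmp1b and Mmp8, the matrilysin Mmp7, the macrophage elastase Mmp12, Timp4 (0 to 12 counts) and most of the testis-type Adam genes, and 4 of them (Mmp20, Adam34, Adam3a and Adam6a) had no count in any library, which allows up to 3 counts in each. Together the 75 genes took 0.424% to 0.444% of all counts in the control libraries, 0.290% to 0.322% in RBPMS-KD, 0.324% to 0.336% in RBFOX2-KD and 0.292% to 0.301% in QKI-KD, so every knockdown library was below every control library. This sum is mostly Timp2, Adam19 and Adam12, with 146376, 87722 and 79466 of 524512 member counts in control library 1. The same genes had 86290, 57312 and 53395 of 357632 in RBPMS-KD library 1 and 108170, 40211 and 76589 of 454489 in RBFOX2-KD library 1. In QKI-KD library 1 they had 51920, 72556 and 42565 of 387182. The share is thus weighted by these genes and does not describe each member of the list. In RBPMS-KD the other members together also took a lower share than in control.

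Here a gene rose or fell when the adjusted p of the edgeR quasi-likelihood test, taken over all 18438 genes tested, was under 0.05, and values after ± of a log2 fold change are standard errors from that fit with 3 libraries per group. The 3 comparisons share the same control libraries. In RBPMS-KD 14 of the 49 tested members rose (28.6%) and 23 fell (46.9%), beside 30.4% and 29% of all tested genes. In RBFOX2-KD 15 rose (30.6%) and 21 fell (42.9%), beside 30.1% and 30.1%. In QKI-KD 17 rose (34.7%) and 18 fell (36.7%), beside 32.9% and 34%, which is near the background in both directions. The median log2 fold change of the tested members was -0.18 in RBPMS-KD, -0.18 in RBFOX2-KD and -0.17 in QKI-KD, against 0.01 for all genes in each case, and the median absolute change was 0.50, 0.45 and 0.81, against 0.33, 0.33 and 0.42. These are descriptions of the list, with no test of the list itself. Adam23 and Adamts20 had under 10 counts in each control library and were tested only through the knockdowns, and without them the counts were 12 and 23 of 47 in RBPMS-KD, 14 and 21 in RBFOX2-KD, and 15 and 18 in QKI-KD.

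Changes above 2-fold that also passed the test were counted separately, as the study's threshold does. In RBPMS-KD 5 members rose and 4 fell above 2-fold (10.2% and 8.16%, beside 5.16% and 4.5% of all genes), or 3 and 5 with limma on the normalised table. In RBFOX2-KD 5 rose and 5 fell (10.2% each, beside 6.96% and 4.73%), a split that became 6 and 2 when libraries were scaled by their totals alone. In QKI-KD 8 rose and 10 fell (16.3% and 20.4%, beside 8.28% and 9.24%). Without Adam23 and Adamts20, 3 rose and 4 fell in RBPMS-KD, 4 and 5 in RBFOX2-KD, and 6 and 10 in QKI-KD. The genes that rose above 2-fold hold many of the least counted members: without those of a mean under 200 counts, 0 rose and 4 fell in RBPMS-KD, 1 rose and 3 fell in RBFOX2-KD, and 3 rose and 9 fell in QKI-KD.

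**Figure D1:**
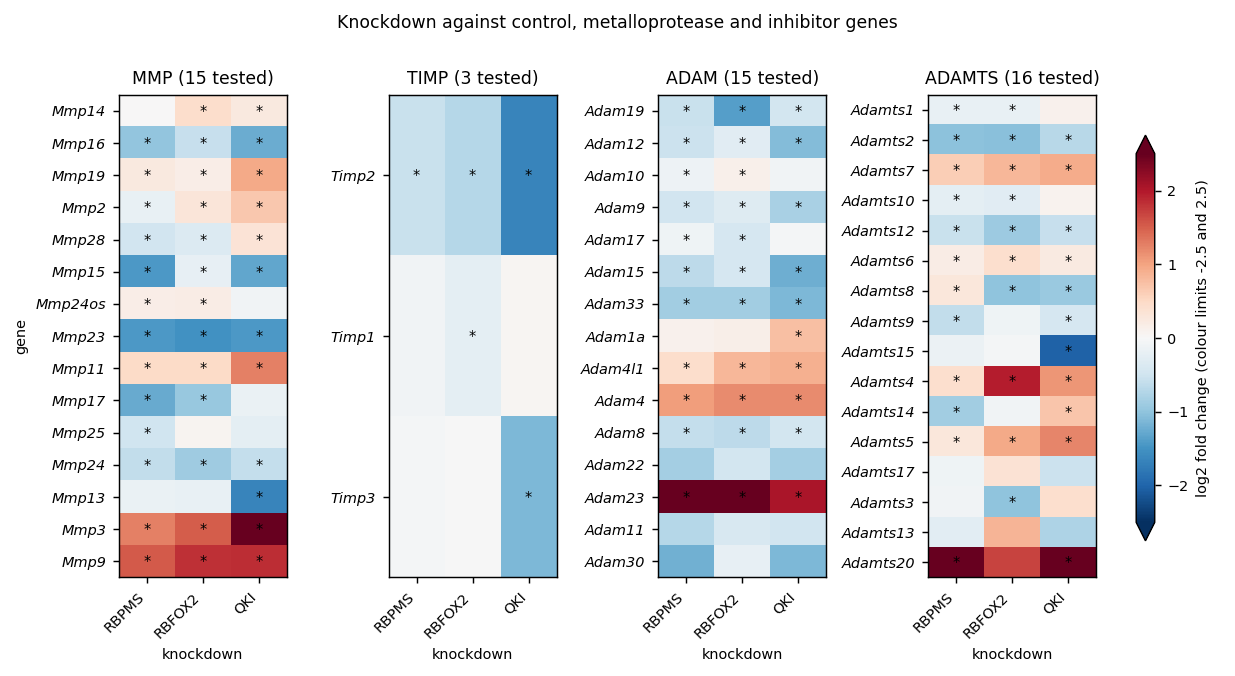
Log2 fold change against control of the 49 tested members (rows, in 4 panels by family, ordered from the most to the least counted) in the knockdowns of RBPMS, RBFOX2 and QKI (columns). Red is higher and blue is lower than control, and a star marks an adjusted p under 0.05. Timp2, Mmp16, Mmp23, Adam12, Adam15 and Adam33 are blue in each column, and Adam23, Adamts20, Mmp3 and Mmp9 at the foot of the panels are red in most columns with few counts.

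Of the 3 tested inhibitor genes, none rose in a knockdown, 1 fell in RBPMS-KD, 2 in RBFOX2-KD and 2 in QKI-KD. Beside these, 29%, 30.1% and 34% of all tested genes fell in the same order. Timp2 encodes an inhibitor that also bridges proMMP2 to the membrane protease MMP14. Its level was 1195, 1158 and 1279 CPM in the control libraries, 811, 828 and 842 in RBPMS-KD, 782, 738 and 695 in RBFOX2-KD and 375, 386 and 391 in QKI-KD. No knockdown library reached any control library, and the QKI-KD libraries were the lowest of the 12. Timp2 fell in RBPMS-KD (-0.55 ± 0.043, adjusted p = 7.75e-09), in RBFOX2-KD (-0.71 ± 0.043, adjusted p = 2.35e-10) and in QKI-KD (-1.66 ± 0.044, adjusted p = 2.64e-15). The fall in QKI-KD exceeded that in RBPMS-KD by 1.11 ± 0.044 (adjusted p = 7.19e-13) and that in RBFOX2-KD by 0.94 ± 0.044 (adjusted p = 3.58e-12), each a tested difference of log2 levels between the knockdowns.

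Timp3 encodes the TIMP that binds to the matrix and also inhibits ADAM17 and several ADAMTS proteases. Its level was 17.8, 17.1 and 18.2 CPM in control, 17.2, 16.0 and 18.1 in RBPMS-KD, 18.5, 17.1 and 16.9 in RBFOX2-KD and 8.95, 7.27 and 8.18 in QKI-KD. The QKI-KD libraries lay apart from all others, and the other groups overlapped. Timp3 fell in QKI-KD (-1.12 ± 0.069, adjusted p = 1.77e-10). The difference was -0.051 ± 0.067 in RBPMS-KD and -0.017 ± 0.066 in RBFOX2-KD, neither past the threshold (adjusted p = 0.537 and 0.845). Timp1, a secreted inhibitor that blocks membrane-type MMPs only weakly, stood at 109, 103 and 105 CPM in control and 91.2, 89.0 and 88.8 in RBFOX2-KD, where it fell (-0.24 ± 0.049, adjusted p = 0.000421). In RBPMS-KD (92.3, 109 and 95.6) and QKI-KD (111, 112 and 106) its levels overlapped with control and the test was not passed (adjusted p = 0.101 and 0.4). The RBPMS-KD value passed without RBPMS-KD library 2, at -0.17 (adjusted p = 0.000122), with library totals (-0.14, adjusted p = 0.0173) and with no filter (-0.11, adjusted p = 0.0272), and the QKI-KD value passed with library totals (0.13, adjusted p = 0.0203). In the RefSeq annotation of the GRCr8 assembly, Timp1 and Timp3 overlap the synapsin genes Syn1 and Syn3, and Timp2 overlaps Cep295nl. Whether the counting used strand is not stated, so reads of overlapping genes cannot be told apart here.

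The start-proximal sequences of Timp2 and Timp3 are shown because these inhibitor genes fell together in QKI-KD, and those of Mmp3 and Mmp13 because the 2 proteases lie in 1 gene cluster and moved in opposite directions there. They are the 250 bases before the annotated start, from RefSeq on GRCr8, on the strand of the gene, in which 50 of the 75 members have an entry. Capitals mark matches, on either strand, to the AP-1 motif TGANTCA and to TATAAA in the Mmp promoters, and to the GC box GGGCGG in the Timp promoters.
Timp2, chr10:104089215-104089464, minus strand: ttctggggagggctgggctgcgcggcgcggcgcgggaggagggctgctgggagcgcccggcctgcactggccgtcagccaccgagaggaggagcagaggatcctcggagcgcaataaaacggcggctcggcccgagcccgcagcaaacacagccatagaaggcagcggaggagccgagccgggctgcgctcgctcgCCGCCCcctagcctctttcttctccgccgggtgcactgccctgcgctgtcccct
Timp3, chr7:19459559-19459808, minus strand: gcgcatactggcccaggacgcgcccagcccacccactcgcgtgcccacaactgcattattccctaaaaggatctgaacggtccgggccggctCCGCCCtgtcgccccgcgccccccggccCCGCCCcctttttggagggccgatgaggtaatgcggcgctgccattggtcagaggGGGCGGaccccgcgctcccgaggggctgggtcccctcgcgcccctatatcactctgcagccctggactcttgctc
Mmp3, chr8:12925031-12925280, plus strand: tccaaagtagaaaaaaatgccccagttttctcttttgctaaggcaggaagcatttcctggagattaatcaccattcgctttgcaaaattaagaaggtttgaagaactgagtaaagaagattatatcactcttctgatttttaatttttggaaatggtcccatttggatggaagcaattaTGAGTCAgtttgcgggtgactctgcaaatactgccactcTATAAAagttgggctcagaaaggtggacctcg
Mmp13, chr8:12782579-12782828, plus strand: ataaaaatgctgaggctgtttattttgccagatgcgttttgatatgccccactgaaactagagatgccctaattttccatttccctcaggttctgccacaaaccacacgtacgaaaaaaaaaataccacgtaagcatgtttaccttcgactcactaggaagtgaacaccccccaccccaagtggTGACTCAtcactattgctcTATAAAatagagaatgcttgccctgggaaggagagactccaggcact

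The Timp promoters are 72% (Timp2) and 69.6% (Timp3) G or C, with 1 and 3 GC boxes and neither an AP-1 match nor TATAAA. Those of Mmp3 (38.8%) and Mmp13 (44.4%) each hold 1 AP-1 match, which begins 71 bases before the start in Mmp3 and 66 in Mmp13, and 1 TATAAA, which begins 32 and 47 bases before it. Over all 58 windows of members, of 300 bases with 50 after the start, TGANTCA was found in 9 (15.5%), against 7.33% of 33469 windows of the same length, TATAAA in 18 (31%), against 14.2%, and GGGCGG in 23 (39.7%), against 33.1%. The serum response element known as CArG was in 0 member windows and in 1.64% of all. The 9 AP-1 windows are those of Adam19, Adam24 and 7 genes that belong to the Mmp cluster (Mmp1, Mmp3, Mmp7, Mmp10, Mmp12, Mmp13 and Mmp20), of which Mmp3 and Mmp13 had enough counts to test.

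Among the membrane-type MMPs, 6 of 6 genes were tested, and 5 fell in RBPMS-KD, 4 in RBFOX2-KD and 3 in QKI-KD, beside falls of 29%, 30.1% and 34% of all tested genes. Mmp25, which is held by a lipid anchor, fell in RBPMS-KD (-0.50 ± 0.12) and did not pass in RBFOX2-KD (0.07 ± 0.12, adjusted p = 0.63) or QKI-KD (-0.25 ± 0.12, adjusted p = 0.0762), where it passed without control library 3 (-0.33, adjusted p = 0.0313). Mmp14, the activator of proMMP2 and a collagenase at the cell surface, fell in no knockdown. Its level was 334, 336 and 347 CPM in control, 353, 322 and 353 in RBPMS-KD, 463, 463 and 459.9 in RBFOX2-KD and 396, 409 and 402 in QKI-KD. It rose in RBFOX2-KD (0.45 ± 0.036, adjusted p = 1.1e-08) and in QKI-KD (0.25 ± 0.036, adjusted p = 1.24e-05), with no overlap with control. In RBPMS-KD it overlapped with control (0.015 ± 0.036, adjusted p = 0.746), and the sign of that small difference turned under other settings.

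Mmp15 and Mmp16 encode transmembrane relatives of MMP14. Mmp15 was at 21.8, 21.7 and 25.7 CPM in control, 8.44, 8.75 and 8.38 in RBPMS-KD, 19.1, 21.6 and 19.7 in RBFOX2-KD and 8.89, 9.49 and 9.62 in QKI-KD. It fell in RBPMS-KD (-1.44 ± 0.069, adjusted p = 1.52e-11) and in QKI-KD (-1.31 ± 0.068, adjusted p = 1.65e-11), and these 2 knockdowns did not pass the test against each other (-0.13 ± 0.071 (adjusted p = 0.128)). In RBFOX2-KD the fall was small (-0.20 ± 0.065, adjusted p = 0.0139) and depended on single libraries and on the processing. It was -0.12 without control library 3 (adjusted p = 0.11) and -0.17 without RBFOX2-KD library 1 (adjusted p = 0.0651). Nor did it pass with library totals (-0.14, adjusted p = 0.0572) or limma on the normalised table (-0.19, adjusted p = 0.0611). The RBPMS-KD level was below that of RBFOX2-KD, with a tested log2 difference of -1.24 ± 0.069 (adjusted p = 1.64e-10). Mmp16 read 113, 114 and 139.9 CPM in control, 65.8, 56.1 and 63.4 in RBPMS-KD, 83.3, 85.7 and 78.5 in RBFOX2-KD and 49.8, 54.2 and 50.7 in QKI-KD. All 9 knockdown libraries were below the control libraries, and Mmp16 fell in RBPMS-KD (-0.99 ± 0.073, adjusted p = 3.54e-09), RBFOX2-KD (-0.57 ± 0.072, adjusted p = 2.67e-06) and QKI-KD (-1.25 ± 0.073, adjusted p = 8.73e-11).

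Mmp17 encodes an MMP held by a lipid anchor. It stood at 6.27, 6.94 and 6.90 CPM in control, 2.99, 2.78 and 2.62 in RBPMS-KD, 3.30, 3.76 and 3.40 in RBFOX2-KD and 5.2, 6.67 and 6.02 in QKI-KD. The gene fell in RBPMS-KD (-1.26 ± 0.095, adjusted p = 4.62e-09) and RBFOX2-KD (-0.94 ± 0.092, adjusted p = 1.06e-07). QKI-KD overlapped with control (-0.17 ± 0.089, adjusted p = 0.0989), and without QKI-KD library 2 the value was -0.26 with an adjusted p of 0.0241. RBPMS-KD was lower than QKI-KD, with a tested log2 difference of -1.09 ± 0.096 (adjusted p = 2.83e-08). Mmp23, a small MMP with a membrane signal anchor and no hemopexin domain, read 17.0, 16.7 and 17.6 CPM in control, 6.03, 7.02 and 5.85 in RBPMS-KD, 6.30, 6.35 and 5.36 in RBFOX2-KD and 5.60, 7.52 and 5.78 in QKI-KD. All 9 knockdown libraries were far below control, and Mmp23 fell in RBPMS-KD (-1.44 ± 0.098, adjusted p = 1.34e-09), RBFOX2-KD (-1.51 ± 0.098, adjusted p = 5.41e-10) and QKI-KD (-1.44 ± 0.098, adjusted p = 5.98e-10). Mmp24, a membrane-type MMP known from neurons, ranged from 1.95 to 2.82 CPM in control and from 1.23 to 1.80 CPM over the knockdown libraries, and fell in RBPMS-KD (-0.62 ± 0.14), RBFOX2-KD (-0.88 ± 0.14) and QKI-KD (-0.59 ± 0.14). It overlaps Mmp24os, a gene that the symbol rule also takes in although its name is not that of a protease.

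Secreted MMPs moved the other way in several cases. Mmp2 (gelatinase A) and the genes Mmp3, Mmp9, Mmp19, Mmp24, Mmp25 and Mmp28 were not covered by the rule for named genes and were chosen after their values were seen. Mmp2 was at 24.3, 25.5 and 20.7 CPM in control, 20.3, 20.6 and 21.3 in RBPMS-KD, 28.4, 31.1 and 27.7 in RBFOX2-KD and 36.7, 35.6 and 39.6 in QKI-KD. The RBFOX2-KD and QKI-KD libraries were above all control libraries, and Mmp2 rose there (0.31 ± 0.066, adjusted p = 0.000682, and 0.67 ± 0.066, adjusted p = 9.29e-08). The fall in RBPMS-KD (-0.18 ± 0.067, adjusted p = 0.0272) came with overlapping libraries and did not pass without control library 1, control library 2 or RBPMS-KD library 1 (-0.12 to -0.17, adjusted p = 0.0698 to 0.161). Nor did this fall pass with the 6 libraries alone (-0.18, adjusted p = 0.056) or limma on the normalised table (-0.18, adjusted p = 0.0939). The RBPMS-KD level was lower than that of QKI-KD, with a tested log2 difference of -0.85 ± 0.067 (adjusted p = 6.69e-09). Mmp11, the stromelysin that furin activates inside the cell, stood at 4.86, 4.74 and 5.35 CPM in control, 6.57, 6.81 and 7.41 in RBPMS-KD, 7.01, 7.16 and 6.58 in RBFOX2-KD and 12.5, 12.1 and 11 in QKI-KD. It rose in RBPMS-KD (0.48 ± 0.073, adjusted p = 2.26e-05), RBFOX2-KD (0.47 ± 0.072, adjusted p = 2.06e-05) and QKI-KD (1.26 ± 0.071, adjusted p = 4.98e-11), and its annotated span overlaps that of Chchd10.

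Mmp19 and Mmp28 are secreted MMPs of other branches of the family. Mmp19 ranged from 52.0 to 57.0 CPM in control and from 102 to 106 CPM in QKI-KD, and it rose by 0.95 ± 0.04 there, by 0.24 ± 0.04 in RBPMS-KD and by 0.17 ± 0.04 in RBFOX2-KD. Mmp28 fell in RBPMS-KD (-0.48 ± 0.067) and RBFOX2-KD (-0.34 ± 0.066) and rose in QKI-KD (0.34 ± 0.065). The 3 RBPMS-KD libraries of Mmp28 (16.5 to 20.4 CPM) and the 3 of RBFOX2-KD (19.7 to 21.7 CPM) were below control (24.5 to 27.3 CPM), and those of QKI-KD (31.9 to 34.2 CPM) above it.

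In the Mmp cluster, 2 of 10 genes were counted well enough to test, and between them the annotation places Mmp12 and Mmp1b. Mmp13, the main interstitial collagenase of rodents, read 1.32, 1.72 and 1.29 CPM in control, 1.48, 1.28 and 1.15 in RBPMS-KD, 1.24, 1.33 and 1.22 in RBFOX2-KD and 0.39, 0.522 and 0.476 in QKI-KD. It fell in QKI-KD (-1.65 ± 0.17, adjusted p = 1.3e-07), whose libraries lay below all others, and overlapped with control in RBPMS-KD (-0.16 ± 0.15, adjusted p = 0.396) and RBFOX2-KD (-0.20 ± 0.15, adjusted p = 0.277). Mmp3, a stromelysin that also activates other proMMPs, had 4, 16 and 10 counts in the control libraries, 12, 35 and 16 in RBPMS-KD, 22, 28 and 37 in RBFOX2-KD and 112, 72 and 98 in QKI-KD. Mmp3 rose in QKI-KD (3.33 ± 0.37, adjusted p = 4.05e-07) and, from few counts, in RBFOX2-KD (1.51 ± 0.41, adjusted p = 0.00415) and RBPMS-KD (1.26 ± 0.43, adjusted p = 0.0173). The last of these did not pass without control library 1 (0.95, adjusted p = 0.0751) or RBPMS-KD library 2 (0.82, adjusted p = 0.147). Mmp9 (gelatinase B) had 16, 14 and 12 counts in control, 28, 36 and 42 in RBPMS-KD, 46, 71 and 37 in RBFOX2-KD and 53, 33 and 56 in QKI-KD. It rose in RBPMS-KD (1.54 ± 0.34), RBFOX2-KD (1.83 ± 0.33) and QKI-KD (1.85 ± 0.33), at levels under 0.6 CPM.

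**Figure D2:**
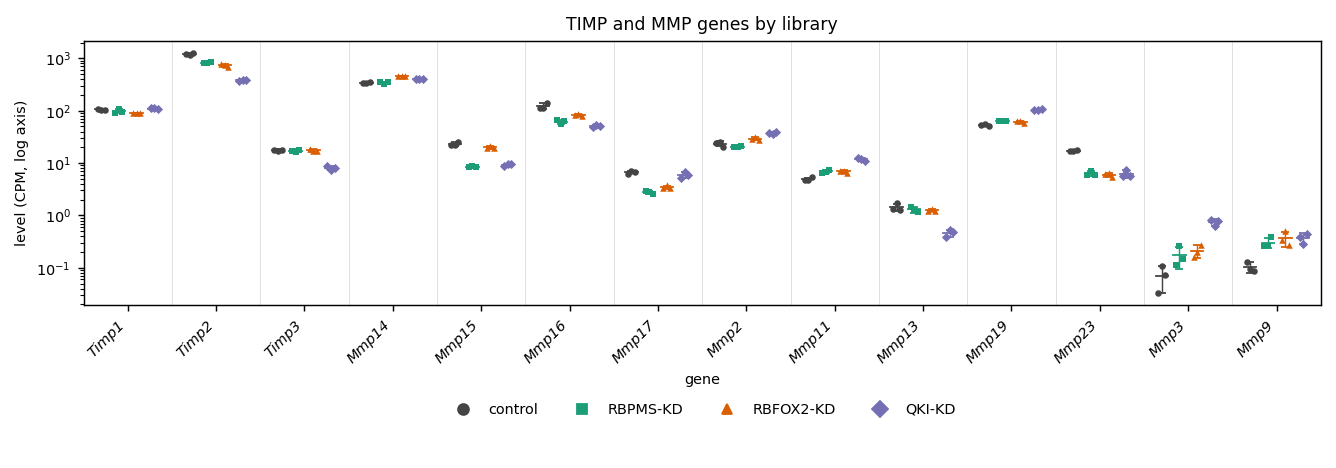
Level in CPM (log axis) of 3 Timp and 11 Mmp genes in each of the 12 libraries, coloured by group, with the group mean and SD of 3 libraries as lines. Timp2 and Timp3 are lowest in QKI-KD, Mmp15 is low in RBPMS-KD and QKI-KD but not in RBFOX2-KD, and Mmp13 falls while Mmp3 rises in QKI-KD.

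Of the ADAMs known as active proteases, 9 were tested, and 8 fell in RBPMS-KD, 7 in RBFOX2-KD and 6 in QKI-KD (29%, 30.1% and 34% of all tested genes fell), with 1 rise, that of Adam10 in RBFOX2-KD. Adam19, a meltrin that can shed neuregulin, was at 716, 759 and 746 CPM in control, 539, 439 and 528 in RBPMS-KD, 291, 277 and 285 in RBFOX2-KD and 524, 556 and 535 in QKI-KD. The RBFOX2-KD libraries were far below the others. Adam19 fell in RBPMS-KD (-0.56 ± 0.057, adjusted p = 1.86e-07), RBFOX2-KD (-1.38 ± 0.058, adjusted p = 1.84e-12) and QKI-KD (-0.46 ± 0.057, adjusted p = 1.45e-06), and RBFOX2-KD was lower than RBPMS-KD by a tested difference of 0.82 ± 0.057 (adjusted p = 2.87e-09). Adam12, a meltrin linked to muscle cell fusion and fibrosis, read 649, 679 and 699 CPM in control, 502, 389.6 and 504 in RBPMS-KD, 554, 555 and 559 in RBFOX2-KD and 307, 323 and 328 in QKI-KD. For this gene QKI-KD was the lowest group. It fell in RBPMS-KD (-0.54 ± 0.069, adjusted p = 3.01e-06), RBFOX2-KD (-0.28 ± 0.069, adjusted p = 0.00188) and QKI-KD (-1.08 ± 0.07, adjusted p = 2.89e-10), of which the fall in RBFOX2-KD did not pass with limma on the normalised table (-0.14, adjusted p = 0.241).

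Adam9, Adam15 and Adam33 also were lowest in QKI-KD. Adam9, which can shed HB-EGF, stood at 137, 139 and 143 CPM in control, 106, 96.3 and 96.3 in RBPMS-KD, 111, 111 and 112 in RBFOX2-KD and 78.8, 82.8 and 76.7 in QKI-KD. Its log2 fold change was -0.49, -0.33 and -0.81 in RBPMS-KD, RBFOX2-KD and QKI-KD (adjusted p = 1.88e-08, 2.32e-06 and 1.21e-11). Adam15, whose disintegrin domain binds integrins, was at 106, 109 and 112 CPM in control, 68.0, 72.2 and 67.3 in RBPMS-KD, 85.4, 79.7 and 78.2 in RBFOX2-KD and 47.5, 47.2 and 46.0 in QKI-KD. No library of any knockdown reached control, and Adam15 fell in RBPMS-KD (-0.65 ± 0.041, adjusted p = 3.92e-10), RBFOX2-KD (-0.42 ± 0.04, adjusted p = 7.77e-08) and QKI-KD (-1.21 ± 0.041, adjusted p = 5.38e-14). Adam33, an ADAM of mesenchymal cells known as an asthma susceptibility gene, read 43.1, 40.2 and 41.3 CPM in control, 23.6, 21.2 and 23.8 in RBPMS-KD, 23.3, 21.7 and 23.0 in RBFOX2-KD and 18.9, 21.1 and 17.4 in QKI-KD. Its log2 fold change was -0.86 ± 0.062, -0.87 ± 0.062 and -1.12 ± 0.063 (adjusted p = 2.64e-09, 1.74e-09 and 4.56e-11).

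Adam17 and Adam10 are the best known sheddases. Adam17, which releases TNF and EGF receptor ligands, was at 107, 108 and 106 CPM in control, 102, 97.4 and 99.6 in RBPMS-KD, 79.2, 80.3 and 81.2 in RBFOX2-KD and 104, 103 and 105 in QKI-KD. The RBFOX2-KD libraries stood apart below the rest, with a fall of 0.42 on the log2 scale (SE 0.031, adjusted p = 4.03e-09). The fall in RBPMS-KD was smaller (-0.10 ± 0.031, adjusted p = 0.0108) and did not pass with the 6 libraries alone (-0.098, adjusted p = 0.0613), and QKI-KD did not pass (-0.042 ± 0.031, adjusted p = 0.255). Adam10, which cleaves Notch and many adhesion proteins, read 132, 136 and 144 CPM in control, 132, 119 and 128 in RBPMS-KD, 147, 147 and 153 in RBFOX2-KD and 128, 128 and 131 in QKI-KD. Its values of -0.12 ± 0.041 in RBPMS-KD (adjusted p = 0.0181) and 0.12 ± 0.041 in RBFOX2-KD (adjusted p = 0.0188) passed the test by little: the former did not pass without control library 3 (-0.09, adjusted p = 0.102), nor the latter without control library 1 or 2 or RBFOX2-KD library 2 or 3 (0.09 to 0.11, adjusted p = 0.0606 to 0.117). In QKI-KD it was -0.089 ± 0.041 (adjusted p = 0.0625), which passed without control library 1 (-0.12, adjusted p = 0.0335).

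Adam8, a sheddase of leukocytes, stood at 1.36, 1.61 and 1.31 CPM in control and fell in RBPMS-KD (-0.59 ± 0.18, adjusted p = 0.0101), RBFOX2-KD (-0.66 ± 0.18, adjusted p = 0.00435) and QKI-KD (-0.46 ± 0.18, adjusted p = 0.034). The call in RBPMS-KD was lost without control library 2 (-0.50, adjusted p = 0.051) or RBPMS-KD library 2 (-0.39, adjusted p = 0.0594), and that in QKI-KD without control library 2 (-0.36, adjusted p = 0.136), QKI-KD library 1 (-0.35, adjusted p = 0.137) or QKI-KD library 3 (-0.47, adjusted p = 0.0607). The QKI-KD call was also lost with library totals (-0.37, adjusted p = 0.0806) and limma on the normalised table (-0.44, adjusted p = 0.0727). The other rises among the ADAMs were seen in genes of low level. Adam4, a gene known from testis, was at 0.719, 0.611 and 0.676 CPM in control, 1.44, 1.45 and 1.25 in RBPMS-KD, 1.5, 1.70 and 1.32 in RBFOX2-KD and 1.58, 1.42 and 1.54 in QKI-KD. All 9 knockdown libraries lay above control, and it rose in RBPMS-KD (1.05 ± 0.14), RBFOX2-KD (1.18 ± 0.14) and QKI-KD (1.18 ± 0.14). Its neighbour Adam4l1 rose by 0.44 ± 0.15, 0.83 ± 0.14 and 0.89 ± 0.14 in the same order, the first of which did not pass without control library 2 (0.38, adjusted p = 0.064) or RBPMS-KD library 1 (0.31, adjusted p = 0.0987). Both Adam4 and Adam4l1 overlap Cox16, a gene for assembly of cytochrome oxidase, in the annotation, and they are close relatives, so the source of their reads is uncertain. Adam1a, also known from sperm, rose in QKI-KD alone among the comparisons that passed (0.75 ± 0.1, adjusted p = 3.52e-06). Adam23, which lacks the catalytic zinc site, had 3, 4 and 5 counts in control, 20, 34 and 14 in RBPMS-KD, 39, 18 and 38 in RBFOX2-KD and 20, 8 and 19 in QKI-KD, and passed the filter on low counts only through the knockdowns. Adam8, Adam4l1, Adam1a and Adam23 were chosen after their values were seen.

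**Figure D3:**
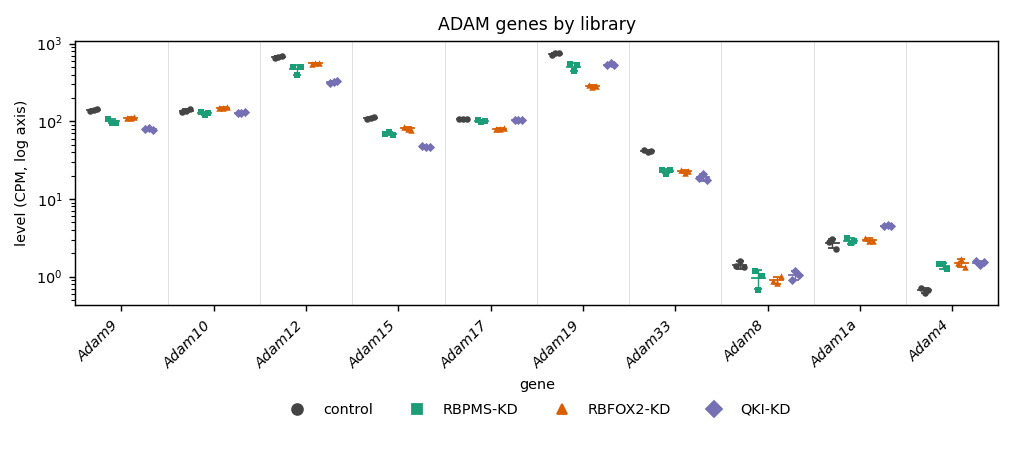
Level in CPM (log axis) of 10 Adam genes in each of the 12 libraries, coloured by group, with the group mean and SD of 3 libraries as lines. Adam19 is lowest in RBFOX2-KD and Adam12, Adam15 and Adam33 in QKI-KD, Adam17 is below control in RBFOX2-KD, and Adam4 is higher in all 9 knockdown libraries.

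The proteoglycanase branch of the ADAMTS family cuts aggrecan and versican. Of its 7 tested genes, 4 rose and 2 fell in RBPMS-KD, 2 rose and 2 fell in RBFOX2-KD, and 3 rose and 3 fell in QKI-KD. Of all tested genes, 30.4%, 30.1% and 32.9% rose and 29%, 30.1% and 34% fell in the same order. Without Adamts20, which had 4 control counts in all, 3, 2 and 2 rose. Adamts4, one of the main aggrecanases, was at 3.70, 3.07 and 2.97 CPM in control, 4.79, 3.98 and 4.29 in RBPMS-KD, 12.2, 12.6 and 13.1 in RBFOX2-KD and 6.49, 7.39 and 6.92 in QKI-KD. The groups did not overlap with one another, with control lowest and RBFOX2-KD highest. Adamts4 rose in RBPMS-KD (0.42 ± 0.092, adjusted p = 0.000726), RBFOX2-KD (1.96 ± 0.087, adjusted p = 3.78e-12) and QKI-KD (1.10 ± 0.089, adjusted p = 6.32e-09), and RBFOX2-KD exceeded QKI-KD by a tested difference of 0.87 ± 0.082 (adjusted p = 4.84e-08). Adamts5, the other main aggrecanase, read 2.47, 2.32 and 2.78 CPM in control, 2.97, 2.82 and 3.42 in RBPMS-KD, 5.15, 4.65 and 4.90 in RBFOX2-KD and 6.08, 5.83 and 5.85 in QKI-KD. It rose in RBFOX2-KD (0.96 ± 0.089, adjusted p = 6.15e-08) and QKI-KD (1.23 ± 0.089, adjusted p = 1.44e-09). The rise in RBPMS-KD (0.28 ± 0.093, adjusted p = 0.0158) did not pass without control library 2 (0.22, adjusted p = 0.0787) or RBPMS-KD library 3 (0.20, adjusted p = 0.0971). Nor did this rise pass with the 6 libraries alone (0.28, adjusted p = 0.0546).

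Adamts1, whose product cuts versican in vessels, lies next to Adamts5 in the annotation with no gene between them. It stood at 122, 118 and 128 CPM in control, 111, 103 and 112 in RBPMS-KD, 106, 114 and 105 in RBFOX2-KD and 131, 126 and 137 in QKI-KD. While Adamts5 rose, Adamts1 fell slightly in RBPMS-KD (-0.18 ± 0.045, adjusted p = 0.0026) and RBFOX2-KD (-0.18 ± 0.045, adjusted p = 0.0021). In QKI-KD the value was 0.10 ± 0.045 (adjusted p = 0.0556), which passed without control library 3 (0.13, adjusted p = 0.0277) or QKI-KD library 2 (0.13, adjusted p = 0.0342), and also with library totals (0.19, adjusted p = 0.00151), a mean of at least 200 counts, halved counts, the 6 libraries alone and limma on the normalised table (adjusted p = 0.0141 to 0.0417). The RBFOX2-KD fall did not pass with limma on the normalised table (-0.12, adjusted p = 0.0949).

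Adamts8 and Adamts15 form another adjacent pair with no gene between them. Adamts8, a proteoglycanase with antiangiogenic activity, was at 22.4, 24.1 and 21.2 CPM in control, 28.5, 26.7 and 27.8 in RBPMS-KD, 10.8, 11.8 and 10.9 in RBFOX2-KD and 11.9, 11.4 and 12.4 in QKI-KD. RBPMS-KD libraries were all above control and the other knockdown libraries all below it. Adamts8 rose in RBPMS-KD (0.29 ± 0.054, adjusted p = 0.000158) and fell in RBFOX2-KD (-1.02 ± 0.056, adjusted p = 6.31e-11) and QKI-KD (-0.92 ± 0.056, adjusted p = 1.31e-10), the last 2 of which did not pass the test against each other (-0.10 ± 0.057 (adjusted p = 0.151)). Adamts15, which also cuts aggrecan, read 11.5, 11.3 and 13 CPM in control, 12.8, 9.84 and 9.74 in RBPMS-KD, 11.7, 10.6 and 12.4 in RBFOX2-KD and 3.21, 2.84 and 2.81 in QKI-KD. It fell in QKI-KD (-2.01 ± 0.1, adjusted p = 1.59e-11), whose libraries lay below all others. In RBFOX2-KD it did not pass (-0.048 ± 0.093, adjusted p = 0.679), nor in RBPMS-KD (-0.15 ± 0.094, adjusted p = 0.192), where the value without RBPMS-KD library 1 was -0.29 (adjusted p = 0.00552).

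The remaining proteoglycanases were Adamts9, which fell in RBPMS-KD (-0.62 ± 0.069) and QKI-KD (-0.42 ± 0.068) and overlapped with control in RBFOX2-KD (-0.10 ± 0.067), and Adamts20. Adamts20 had 0, 0 and 4 counts in control, 4, 9 and 10 in RBPMS-KD, 6, 4 and 4 in RBFOX2-KD and 21, 21 and 17 in QKI-KD. It passed the filter only through the knockdowns, and its fold change is not given because it rests on 4 control counts in 1 library. Its call in RBPMS-KD was lost without control library 2 (adjusted p = 0.0505), and RBFOX2-KD passed without control library 3 (adjusted p = 0.00579), the library that holds those counts.

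The procollagen N-proteinases trim the amino-terminal propeptides of fibrillar collagens, and 3 of 3 were tested. Adamts2 was at 126, 126 and 143 CPM in control, 68.3, 59.6 and 65.9 in RBPMS-KD, 66.7, 62.9 and 61.5 in RBFOX2-KD and 79.6, 85.0 and 78.2 in QKI-KD. The knockdown libraries were all below control, and those of QKI-KD lay between control and the other knockdowns. Adamts2 fell in RBPMS-KD (-1.03 ± 0.057, adjusted p = 9.23e-11), RBFOX2-KD (-1.05 ± 0.057, adjusted p = 5.28e-11) and QKI-KD (-0.70 ± 0.056, adjusted p = 5.7e-09), and the RBPMS-KD and RBFOX2-KD levels did not pass the test against each other (0.02 ± 0.057 (adjusted p = 0.788)). Adamts14 read 4.65, 4.76 and 4.97 CPM in control, 2.82, 2.28 and 2.78 in RBPMS-KD, 4.78, 4.58 and 4.23 in RBFOX2-KD and 6.99, 8.51 and 7.93 in QKI-KD. It fell in RBPMS-KD (-0.87 ± 0.097, adjusted p = 5.36e-07) and rose in QKI-KD (0.70 ± 0.089, adjusted p = 2.01e-06), while RBFOX2-KD overlapped with control (-0.082 ± 0.091, adjusted p = 0.459). Adamts3 had a level under 0.5 CPM in every library and fell in RBFOX2-KD (-1.01 ± 0.29, adjusted p = 0.0069).

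Adamts7 and Adamts12 encode related proteases that cut cartilage oligomeric matrix protein, of which ADAMTS7 is known for its role in smooth muscle migration. They moved in opposite directions. Adamts7 stood at 28.8, 32.2 and 27.5 CPM in control, 47.8, 41.3 and 46.6 in RBPMS-KD, 53.9, 51.6 and 51.0 in RBFOX2-KD and 55.1, 57.0 and 57.4 in QKI-KD, and rose in RBPMS-KD (0.61 ± 0.058, adjusted p = 8.37e-08), RBFOX2-KD (0.82 ± 0.058, adjusted p = 1.67e-09) and QKI-KD (0.94 ± 0.058, adjusted p = 1.78e-10). Adamts12 read 46.2, 47.7 and 54.3 CPM in control, 35.9, 27.9 and 37.5 in RBPMS-KD, 25.6, 28.1 and 25.6 in RBFOX2-KD and 31.2, 32.1 and 35.9 in QKI-KD, and fell in RBPMS-KD (-0.55 ± 0.089, adjusted p = 3.95e-05), RBFOX2-KD (-0.90 ± 0.089, adjusted p = 1.23e-07) and QKI-KD (-0.58 ± 0.088, adjusted p = 1.71e-05). Neither gene overlapped with control in any knockdown.

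Of the ADAMTS genes linked to fibrillin microfibrils, Adamts6 rose in RBFOX2-KD (0.42 ± 0.062), QKI-KD (0.23 ± 0.062) and, with overlapping libraries, RBPMS-KD (0.19 ± 0.062), a call that was lost without control library 1 or 2 or RBPMS-KD library 1 (0.13 to 0.17, adjusted p = 0.0554 to 0.0924). The RBPMS-KD call was also lost with library totals (0.15, adjusted p = 0.0535) and limma on the normalised table (0.18, adjusted p = 0.0748). Adamts10 fell in RBPMS-KD (-0.24 ± 0.071) and RBFOX2-KD (-0.27 ± 0.071) and did not pass in QKI-KD (0.08 ± 0.071, adjusted p = 0.333). Adamts17 and the von Willebrand factor protease Adamts13 were under 0.7 CPM in every library and passed in no knockdown against control. The Adamts genes other than 1, 2, 4, 5, 8 and 15 were named after their values were seen.

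**Figure D4:**
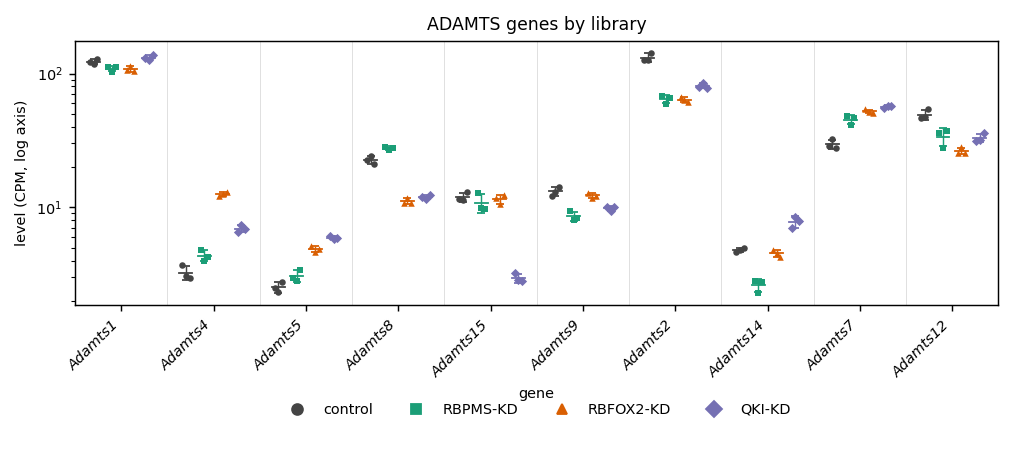
Level in CPM (log axis) of 10 Adamts genes in each of the 12 libraries, coloured by group, with the group mean and SD of 3 libraries as lines. Adamts4 is highest in RBFOX2-KD, Adamts15 is low in QKI-KD alone among these groups, Adamts8 is above control in RBPMS-KD and below it in RBFOX2-KD and QKI-KD, and Adamts7 and Adamts12 move apart.

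The knockdowns were also tested directly against each other. Of the 49 members, 24 differed between RBPMS-KD and RBFOX2-KD, with 7 higher and 17 lower in RBPMS-KD (56.7% of all tested genes differed). Between RBPMS-KD and QKI-KD 29 differed, with 11 higher and 18 lower in RBPMS-KD, or 9 and 25 when libraries were scaled by their totals alone and 8 and 22 with limma on the normalised table (61% of all genes). Between RBFOX2-KD and QKI-KD 37 differed, with 19 higher and 18 lower in RBFOX2-KD (68.5% of all genes). The members' shares, 49%, 59.2% and 75.5%, thus lay near those of all genes.

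The partners, substrates and relatives of these proteases were given as 8 lists with 62 genes, of which 54 were tested. Of these, 16 rose and 24 fell in RBPMS-KD, 21 rose and 22 fell in RBFOX2-KD, and 18 rose and 27 fell in QKI-KD, beside the percentages of all genes given above. The same percentages stand beside the counts of each list below. Of 11 ligands and receptors shed by ADAMs, 8 rose and 3 fell in RBPMS-KD, 7 and 4 in RBFOX2-KD, and 6 and 4 in QKI-KD. Ereg (epiregulin, an EGF receptor ligand released by ADAM17) was at 6.35, 6.71 and 5.24 CPM in control, 30.0, 29.8 and 31.9 in RBPMS-KD, 21.6, 22.2 and 22.2 in RBFOX2-KD and 33.3, 29.4 and 33.5 in QKI-KD, and rose by 2.32 ± 0.074, 1.85 ± 0.074 and 2.39 ± 0.074. Cx3cl1 (fractalkine, a membrane chemokine shed by ADAM10 and ADAM17) read 8.92, 8.28 and 11.8 CPM in control, 12.7, 12.4 and 13.8 in RBPMS-KD, 43.5, 47.9 and 41.1 in RBFOX2-KD and 4.72, 4.73 and 4.52 in QKI-KD. It rose in RBPMS-KD (0.43 ± 0.097) and RBFOX2-KD (2.19 ± 0.095) and fell in QKI-KD (-1.05 ± 0.1).

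Of 8 tested genes for partners of ADAM10 and ADAM17, 5 fell in RBPMS-KD, 6 in RBFOX2-KD and 6 in QKI-KD, and 2, 1 and 0 rose. Tspan15 and Tspan17 encode tetraspanins that escort ADAM10 to the cell surface. Tspan17 ranged from 35.5 to 37.0 CPM in control and from 11.9 to 20.6 CPM over the 9 knockdown libraries, and fell in each of them (-0.96 ± 0.06, -1.51 ± 0.061 and -1.52 ± 0.062). Tspan15 fell in RBPMS-KD (-0.44 ± 0.092) and QKI-KD (-1.5 ± 0.098) and overlapped with control in RBFOX2-KD (0.074 ± 0.089).

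Of 10 matrix substrates, 2 rose and 6 fell in RBPMS-KD, 1 rose and 5 fell in RBFOX2-KD, and 2 rose and 7 fell in QKI-KD. Eln (elastin) was at 665, 583 and 1038 CPM in control, 428, 381 and 393 in RBPMS-KD, 461, 474 and 433 in RBFOX2-KD and 141, 139.8 and 124 in QKI-KD, and control library 3 stood above the others. Eln fell by 0.93, 0.74 and 2.5 on the log2 scale. Dcn (decorin, a small proteoglycan) fell in RBPMS-KD (-1.48 ± 0.22) and QKI-KD (-2.25 ± 0.24) and did not pass in RBFOX2-KD (-0.22 ± 0.2, adjusted p = 0.372). Acan (aggrecan), the substrate after which the aggrecanases are named and a gene chosen after its values were seen, ranged from 2652 to 2985 CPM in control, 1342 to 1787 in RBPMS-KD, 1526 to 1615 in RBFOX2-KD and 991 to 1141 in QKI-KD, a fall of 0.85, 0.83 and 1.38 on the log2 scale.

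Of 7 tested inhibitors and clearance genes other than TIMPs, 3 rose and 2 fell in RBPMS-KD, 5 and 2 in RBFOX2-KD, and 4 and 3 in QKI-KD. Reck encodes a membrane-anchored inhibitor of MMPs and, like Acan, was chosen after its values were seen. It was at 30.4, 28.0 and 34.4 CPM in control, 56.1, 50.4 and 54.2 in RBPMS-KD, 54.9, 53.5 and 54.0 in RBFOX2-KD and 86.5, 94.1 and 86.9 in QKI-KD. In contrast to Timp2, Reck rose in RBPMS-KD (0.79 ± 0.061, adjusted p = 5.93e-09), RBFOX2-KD (0.81 ± 0.061, adjusted p = 3.83e-09) and QKI-KD (1.53 ± 0.061, adjusted p = 4.84e-13), with no overlap with control. The plasminogen activator inhibitors Serpinb2 and Serpine2 moved apart in QKI-KD, where Serpinb2 rose from 1.16, 1.10 and 0.837 to 9.10, 9.29 and 8.52 CPM (3.12 ± 0.13) and Serpine2 fell from 672, 701 and 623 to 115, 121 and 129 CPM (-2.45 ± 0.051). In RBPMS-KD and RBFOX2-KD Serpinb2 rose by 0.65 ± 0.14 and 0.72 ± 0.14, and Serpine2 fell by 0.37 and 0.79 on the log2 scale.

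Of 8 proprotein convertases and plasminogen activators, which activate proMMPs directly or through plasmin, 1 rose and 3 fell in RBPMS-KD, 3 rose and 2 fell in RBFOX2-KD, and 3 rose and 3 fell in QKI-KD. Plat (tissue plasminogen activator) stood at 328, 326 and 340.3 CPM in control, 141, 146 and 147 in RBPMS-KD, 199, 206 and 202 in RBFOX2-KD and 169, 185 and 167 in QKI-KD, and fell by 1.20, 0.71 and 0.93 on the log2 scale. Bsg (basigin), the gene of the MMP inducer EMMPRIN, fell by 0.48, 0.58 and 0.25. Of 3 tested other metzincins, 0 rose and 2 fell in RBPMS-KD, 1 and 1 in RBFOX2-KD, and 2 and 0 in QKI-KD. Tll1, a tolloid protease that processes procollagen, read 2.83, 2.88 and 2.75 CPM in control, 1.55, 1.54 and 1.68 in RBPMS-KD, 1.43, 1.10 and 1.30 in RBFOX2-KD and 15.6, 17.7 and 15.6 in QKI-KD, so that it fell in RBPMS-KD (-0.83 ± 0.096) and RBFOX2-KD (-1.14 ± 0.097) and rose in QKI-KD (2.53 ± 0.083).

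ADAMTS-like proteins resemble ADAMTS proteases without the protease domain and bind microfibrils. Of 6 tested, 0 rose and 2 fell in RBPMS-KD, 3 and 1 in RBFOX2-KD, and 1 and 3 in QKI-KD. Adamtsl3 was at 14.8, 16.0 and 15.6 CPM in control, 17.2, 14.3 and 15.4 in RBPMS-KD, 23.6, 23.6 and 23.2 in RBFOX2-KD and 3.89, 4.13 and 3.59 in QKI-KD, and rose in RBFOX2-KD (0.60 ± 0.062) and fell in QKI-KD (-2.0 ± 0.07). Thsd4 (ADAMTSL6) fell in QKI-KD from 1.71, 1.48 and 2.22 to 0.455, 0.452 and 0.5 CPM (-1.94 ± 0.18). It did not pass in RBPMS-KD (-0.32 ± 0.16, adjusted p = 0.0857), where the value without control library 2 or RBPMS-KD library 3 passed at -0.45 and -0.46 (adjusted p = 0.0236 and 0.0296), nor in RBFOX2-KD (0.013 ± 0.15, adjusted p = 0.946).

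**Figure D5:**
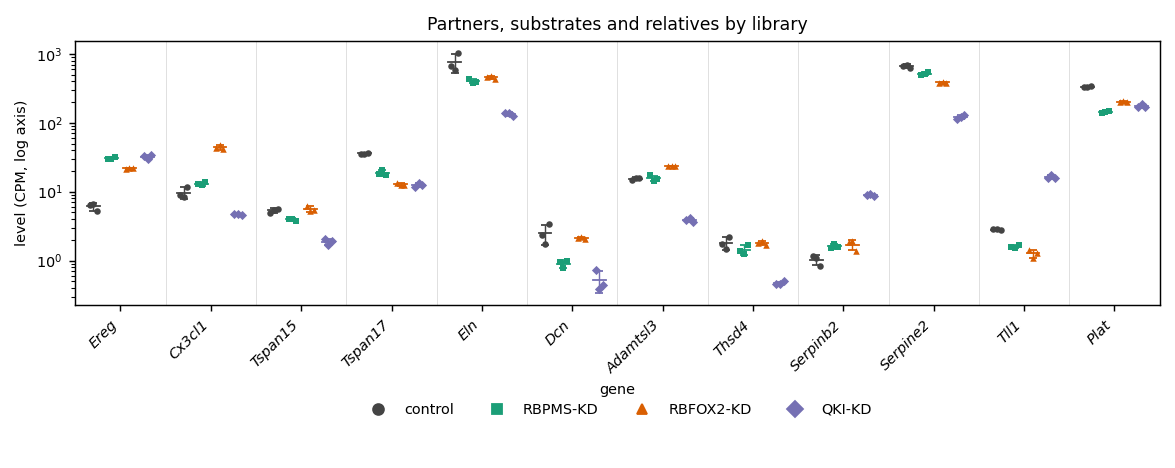
Level in CPM (log axis) of 12 genes of ligands, partners, substrates, other inhibitors and relatives of the proteases in each of the 12 libraries, coloured by group, with the group mean and SD of 3 libraries as lines. Ereg is higher in all knockdown libraries, Cx3cl1 is highest in RBFOX2-KD and lowest in QKI-KD, and Tll1 and Serpinb2 are highest while Eln and Serpine2 are lowest in QKI-KD.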

How the data were processed

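RNA-seq of 12 PAC1 libraries (4 groups of 3) was analysed from the tables as deposited. Per the labels and the study's methods, the authors prepared directional poly(A) libraries, used STAR for alignment (rat build mRatBN7.2) and featureCounts for counting per gene; the deposited counts are raw. Whether counting used strand, and how reads with several matches were treated, is not given in the sources used here. The authors also deposited a noise-filtered, quantile-normalised signal table, used here only for an alternative. Groups were taken from the labels; the study's methods describe the replicates of a condition as biological.

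Counts of all 12 libraries were fitted with edgeR 4.0.16 (R 4.3.3; TMM scaling, filterByExpr, quasi-likelihood test, group as the only term), and p-values were adjusted by Benjamini-Hochberg over the 18438 genes tested. Levels are CPM on TMM-scaled totals. Named members are the Timp genes, the 10 members of highest mean CPM, and members of at least 1 CPM past an adjusted p of 0.05 and a 2-fold change in a knockdown; from each list of related genes up to 2 with the largest such changes are named. Others named were chosen after their values were seen. The members and lists were chosen with earlier results of these data known. Alternatives were RLE size factors, library totals, no filter, a mean of at least 200 counts, the replicate number as a block, the 6 libraries of a comparison alone, DESeq2 1.42.0, limma 3.58.1 on the normalised table, and leaving out each library. Added after seeing the data were halved counts (because low counts were mostly even), edgeR's test against a 2-fold change, and leaving out members under 10 counts in each control library. Promoter sequences and gene neighbours came from RefSeq on GRCr8, another assembly than that of the counts.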

Additional observations from a re-analysis of the deposited data

Results flagged for a closer look

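Each gene below passed the test in opposite directions against control in 2 knockdowns that also differed directly by more than 1 on the log2 scale (edgeR quasi-likelihood test, Benjamini-Hochberg adjusted). Adamts8 rose in RBPMS-KD and fell in the other knockdowns, and its level in RBPMS-KD exceeded that in RBFOX2-KD by 1.31 ± 0.056 (adjusted p = 5.28e-12) and that in QKI-KD by 1.21 (adjusted p = 5.68e-12). Adamts14 fell in RBPMS-KD and rose in QKI-KD, with a difference of -1.58 ± 0.095 (adjusted p = 2.01e-10).

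Cx3cl1 rose in RBPMS-KD and RBFOX2-KD and fell in QKI-KD, and exceeded the QKI-KD level by 1.48 (adjusted p = 1.5e-09) and 3.25 (adjusted p = 2.44e-14). Adamtsl3 rose in RBFOX2-KD and fell in QKI-KD, a difference of 2.60 (adjusted p = 3.16e-15). Tll1 fell in RBPMS-KD and RBFOX2-KD and rose in QKI-KD, with differences of -3.35 (adjusted p = 4.86e-15) and -3.67 (adjusted p = 1.12e-15). Qk, the gene targeted in QKI-KD, rose slightly in RBPMS-KD and fell in QKI-KD, with a difference of 3.31 (adjusted p = 2.06e-19).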

How the results depend on the processing

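Of 2715 values computed for the 183 fold changes of named genes, 2623 kept their direction and side of the threshold. The numbers of members changed above 2-fold depended on the low counts and, separately, on the form of the test. In RBPMS-KD 9 became 4 with a mean of at least 200 counts and 4 when tested against a 2-fold change. In RBFOX2-KD 10 became 4 and 4. The test against a 2-fold change also dropped well counted genes, such as Adamts2 in RBFOX2-KD (adjusted p = 0.854), and kept Adam23 there (adjusted p = 0.006). In QKI-KD the genes it dropped include Adam12 and Timp3 (adjusted p = 0.332 and 0.135). The counts of members past an adjusted p of 0.05 stayed within 1.5 times under the alternatives run.

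The values that changed sign belong to 11 results that had not passed the test. With library totals these were Mmp14 (-0.029) and Adamtsl3 (-0.033) in RBPMS-KD, Timp3 (0.038) and Adamts15 (0.0065) in RBFOX2-KD, and Adam17 in QKI-KD (0.044). With no filter, Mmp14 was at -0.0018 and Adamtsl3 at -0.0064 in RBPMS-KD. With limma on the normalised table, Mmp14 was at -0.055 and Adamtsl3 at -0.0029 in RBPMS-KD, and Adam17 at 0.017 in QKI-KD. With a mean of at least 200 counts, Timp3 was at 0.0055 in RBFOX2-KD. Leaving out each library in turn gave -0.0076 to 0.057 for Mmp14, -0.064 to 0.071 for Adamtsl3 and -0.32 to 0.086 for Adamts3 in RBPMS-KD, -0.0076 to 0.14 for Adamts10 in QKI-KD, and in RBFOX2-KD -0.066 to 0.0016 for Timp3, -0.025 to 0.17 for Mmp25, -0.11 to 0.013 for Adamts15, -0.015 to 0.12 for Tspan15, -0.43 to 0.061 for Dcn and -0.12 to 0.19 for Thsd4. The cause was not tested.

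With the replicate number as a block, 37, 36 and 35 members passed in RBPMS-KD, RBFOX2-KD and QKI-KD, as without it. Over all tested genes, libraries of the same number did not deviate together (correlations of -0.055 to 0.039 over 18 pairs). Libraries of different number gave -0.043 to 0.050 over 36 pairs. These correlations also carry counting noise, so they do not settle whether the numbers pair the samples. Depth limits the Mmp3, Mmp9, Adam23 and Adamts20 values, which rest on few counts.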
